A study of Homo sapiens with 6 samples.

Results

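Ferroptosis is an iron-dependent form of cell death in which polyunsaturated chains of membrane phospholipids are peroxidised. The expression of 10 genes around this process was examined in SiHa, an established cervical squamous carcinoma line that carries human papillomavirus. The set holds the long-chain acyl-CoA synthetase genes ACSL1, ACSL3, ACSL4 and ACSL5, the acyltransferase gene LPCAT3, the reductase gene AIFM2 and the iron genes TFRC, FTH1, FTL and NCOA4. They are 10 of the 17156 genes listed, picked by symbol, and all 10 passed the filter on low counts that left 12671 genes for testing. The shVPS13C cells carry a hairpin RNA against VPS13C and the shcontrol cells a control hairpin, with 3 libraries of total RNA in each. All 6 libraries came from cells exposed to the DNA-crosslinking drug cisplatin (20 µM, 48 h), so neither untreated cells nor the response to the drug was measured. Whether replicates came from separate cultures, and how many hairpins or clones were used, is not stated in the labels. The p-values therefore cover the variation among the 6 libraries, which may be technical. The set was chosen with the read counts of shVPS13C against shcontrol already known. Differences of the 10 genes between these groups are therefore described with confidence intervals, and no p-value is given for them. The intervals come from the same fit as the p-values, are unadjusted and do not allow for the choice of the set. Whether an interval leaves out no change is thus a description and not evidence of a difference.

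In the pathway, ACSL4 couples arachidonic and adrenic acid to coenzyme A, and LPCAT3 inserts such acyl chains into lysophospholipids, which places oxidisable chains in membranes. ACSL3 activates monounsaturated and other long-chain fatty acids, and monounsaturated chains oppose the process. Iron drives the peroxidation: TFRC brings in transferrin-bound iron, FTH1 and FTL form the ferritin shell that stores it, and NCOA4 takes ferritin to lysosomes for breakdown. AIFM2, also called FSP1, regenerates the reduced form of coenzyme Q, which traps lipid radicals independently of glutathione.

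The knockdown was visible in the libraries. VPS13C, the gene of a bridge-like lipid transfer protein, had 23.7, 25.1 and 27.5 CPM (counts scaled to library size) in shVPS13C 1, 2 and 3, against 50.0, 54.9 and 49.6 CPM in shcontrol 1, 2 and 3. Its log2 fold change was -1.02 (SE 0.065, edgeR quasi-likelihood adjusted p = 4.77e-10). Totals ran from 15761967 to 16333424 estimated counts in shVPS13C and from 15643965 to 16319769 in shcontrol. The cells had the keratin genes KRT8 and KRT18 at over 1000 FPKM (fragments per kilobase of transcript, scaled to library size), while KRT5 and TP63 of basal squamous cells were below 1 FPKM in every library. Of the 4 leukocyte markers listed in the files, 1 was over 1 FPKM: CD68 had 39.0 to 41.2 FPKM in shVPS13C and 38.0 to 40.8 FPKM in shcontrol, while PTPRC had 0 counts, CD3E 1 count and LYZ under 1 FPKM. Of 2 hepatocyte markers ALB had 1 count, and TF had 5.70 to 6.29 FPKM in shVPS13C and 5.99 to 7.11 FPKM in shcontrol. In CPM, TF had 112.6 to 124 in shVPS13C and 118.7 to 140.6 in shcontrol, far above its FPKM. A long transcript length was thus used for TF, and its counts were not whole, as with 1907.21 in shVPS13C 1. Whether these reads are transferrin mRNA was not tested. The part of these markers in the results was not tested.

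FTH1, FTL and TFRC carry iron-responsive elements, short hairpins bound by the iron regulatory proteins when cells lack iron. Binding in the 5′ untranslated region of the ferritin genes blocks their translation, and binding in the 3′ untranslated region of TFRC protects its RNA from decay. The elements found in GENCODE release 29 transcripts are shown because, of the 10 genes, FTH1, FTL and TFRC carry a match. The search asked for a C, 5 bases, the loop CAGTG with A, C or T after it, and 5 bases that pair with the first 5, G with T pairs allowed. Each is printed 5′ to 3′ as DNA with the loop in capitals.
FTH1, 5′ untranslated region: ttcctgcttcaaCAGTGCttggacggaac
FTL, 5′ untranslated region: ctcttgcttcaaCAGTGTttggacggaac
TFRC, 3′ untranslated region, site 1: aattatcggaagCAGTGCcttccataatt
TFRC, site 2: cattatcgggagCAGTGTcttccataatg
TFRC, site 3: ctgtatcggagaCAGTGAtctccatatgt
TFRC, site 4: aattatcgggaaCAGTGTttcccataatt
On GRCh38 the FTH1 element lies at chr11:61967574-61967602 on the minus strand and the FTL element at chr19:48965335-48965363 on the plus strand. The TFRC elements lie on the minus strand at chr3:196050979-196051007, chr3:196050575-196050603, chr3:196050510-196050538 and chr3:196050463-196050491. The same search found a match in the 5′ untranslated region of 0.132% and in the 3′ untranslated region of 0.534% of 19669 coding genes. No match was found in ACSL1, ACSL3, ACSL4, ACSL5, LPCAT3, AIFM2 or NCOA4, which says only that these letters are not in their annotated untranslated regions.

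Per transcript length, ferritin stood far above the rest of the set. FTL ran from 6496 to 6628 FPKM in shVPS13C and from 6429 to 6870 FPKM in shcontrol, and FTH1 from 6238 to 6347 FPKM in shVPS13C and from 5978 to 6636 FPKM in shcontrol. These ranges overlap across libraries, but within each of the 6 libraries FTL was above FTH1. TFRC came next with a median of 128.6 FPKM over the 6 libraries, followed by NCOA4 (57.0 FPKM) and LPCAT3 (39.5 FPKM). ACSL4 (30.1 FPKM) and ACSL5 (28.3 FPKM) were neighbours with overlapping ranges. AIFM2 (17.0 FPKM), ACSL3 (13.1 FPKM) and ACSL1 (8.68 FPKM) were lowest, and their ranges over the libraries did not overlap. FTH1 and FTL together took 0.958% to 0.987% of all counts in shVPS13C and 0.938% to 1.02% in shcontrol.

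**Figure D1:**
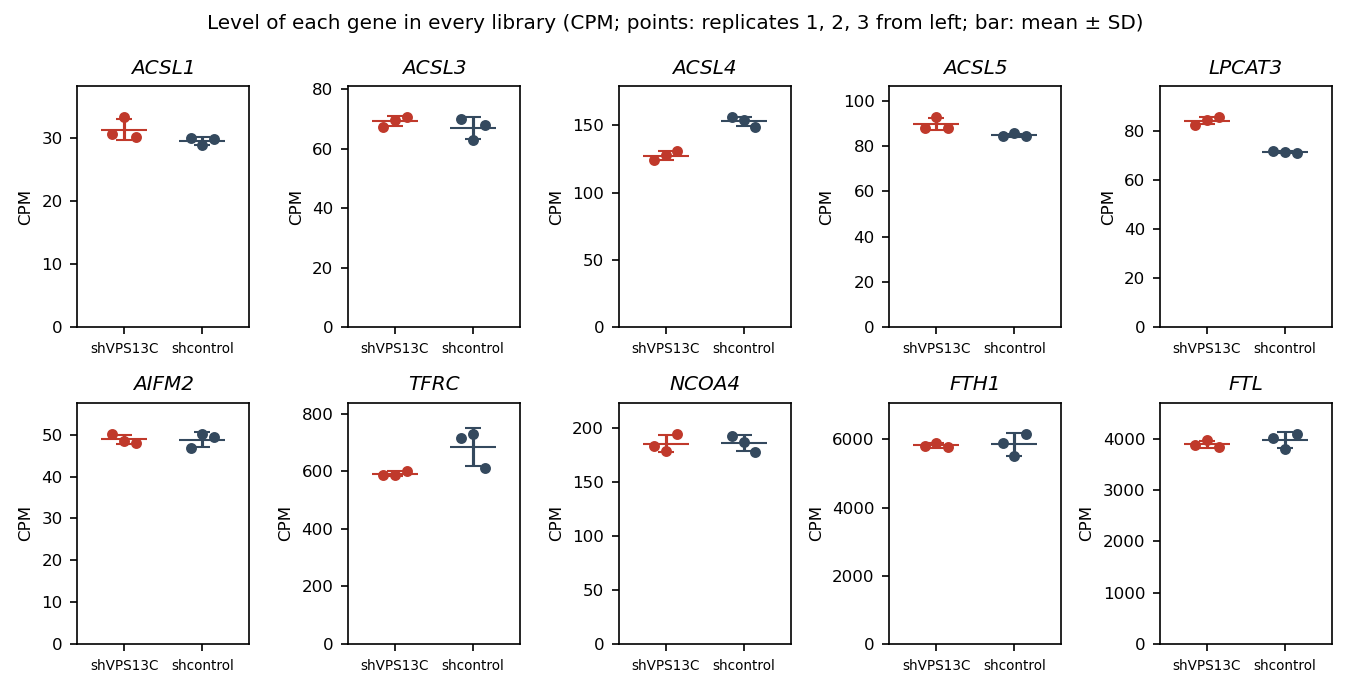
Level of each of the 10 genes in CPM (vertical axis, from 0) in every library, with shVPS13C left of shcontrol, 1 point per library and the mean ± SD as a bar. ACSL4 lies lower and LPCAT3 higher in all 3 shVPS13C libraries than in any shcontrol library, and in TFRC shcontrol 3 (611 CPM) lies near the shVPS13C libraries.

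ACSL4 (Entrez 2182, chrX:109641335-109733257 on GRCh38) was lower after knockdown. It had 124, 128 and 131 CPM in shVPS13C 1, 2 and 3, against 156, 154 and 149 CPM in shcontrol 1, 2 and 3. Every shVPS13C library lay below every shcontrol library. In bulk RNA, fewer cells expressing a gene and less of its RNA per cell cannot be told apart. The means were 128 ± 3.36 CPM in shVPS13C and 153 ± 3.49 CPM in shcontrol (SD, n = 3 each), a fold of 0.834, or -0.26 on the log2 scale (95% confidence interval -0.35 to -0.18, SE 0.041). Behind these values stood 2011 to 2089 estimated counts per library in shVPS13C and 2322 to 2530 in shcontrol. No 50-base stretch, the read length, of its protein-coding transcripts occurs in a transcript of another gene in GENCODE, though 1.22% of the exon bases of all its transcripts overlap exons of KCNE5 on the same strand.

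The 9 RefSeq transcripts listed for ACSL4 divide its counts unevenly. NM_001318510 held 68.9 ± 5.52% of them in shVPS13C and 66.2 ± 0.71% in shcontrol (SD, n = 3 each). NM_004458 held 22.4 ± 7.75% in shVPS13C and 26.7 ± 0.49% in shcontrol. Both match GENCODE transcripts that encode 670 residues. NM_022977, matched to the longer form of 711 residues, held 6.59 ± 1.73% in shVPS13C and 5.89 ± 1.76% in shcontrol. The shares overlapped between groups for all of these transcripts. For NM_004458 shVPS13C 1 stood apart with 281 counts, against 491 and 606 in shVPS13C 2 and 3.

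The other synthetases did not share the lower level. ACSL5 (chr10:112374116-112428376), of intestine and mitochondria, had 88.1, 92.6 and 88.2 CPM in shVPS13C, against 84.4, 85.6 and 84.5 CPM in shcontrol. The groups did not overlap, but the log2 fold change of 0.08 had a 95% confidence interval of -0.01 to 0.17. ACSL1 (chr4:184755595-184826594), the main form of liver, fat and heart, had 30.64, 33.20 and 30.04 CPM in shVPS13C and 29.96, 28.83 and 29.75 CPM in shcontrol, which barely did not overlap, a log2 fold change of 0.08 (95% confidence interval -0.05 to 0.22). ACSL3 (chr2:222861036-222944639), which acts at the endoplasmic reticulum and lipid droplets, had 67.4, 69.8 and 70.5 CPM in shVPS13C and 70.0, 62.8 and 67.9 CPM in shcontrol. Its groups overlapped, with a log2 fold change of 0.05 (95% confidence interval -0.05 to 0.15). The remaining family gene, ACSL6, had 4.58 to 7.3 counts in shVPS13C and 8.99 to 14.6 in shcontrol, too few for the test. Of the bases of the main ACSL5 transcript, 10.9% lie opposite exons of ZDHHC6 or an antisense RNA, and whether the counting used strand is not given in the sources used here.

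Within the family the balance therefore differed between groups. ACSL4 took 34.7%, 34.3% and 35.7% of the summed ACSL FPKM in shVPS13C 1, 2 and 3, against 40.6%, 40.8% and 39.5% in shcontrol 1, 2 and 3. ACSL5 took 36.8 ± 0.545% in shVPS13C and 33.6 ± 0.62% in shcontrol (SD, n = 3 each). ACSL5 was above ACSL4 in each shVPS13C library, and ACSL4 above ACSL5 in each shcontrol library: their ratio on the FPKM scale, ACSL4 over ACSL5, was 0.921 to 0.986 in shVPS13C and 1.17 to 1.23 in shcontrol. The summed ACSL level was 77.4 to 80.7 FPKM in shVPS13C and 81.1 to 83.1 FPKM in shcontrol. These shares restate the difference in ACSL4 on a scale that library size does not touch.

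**Figure D2:**
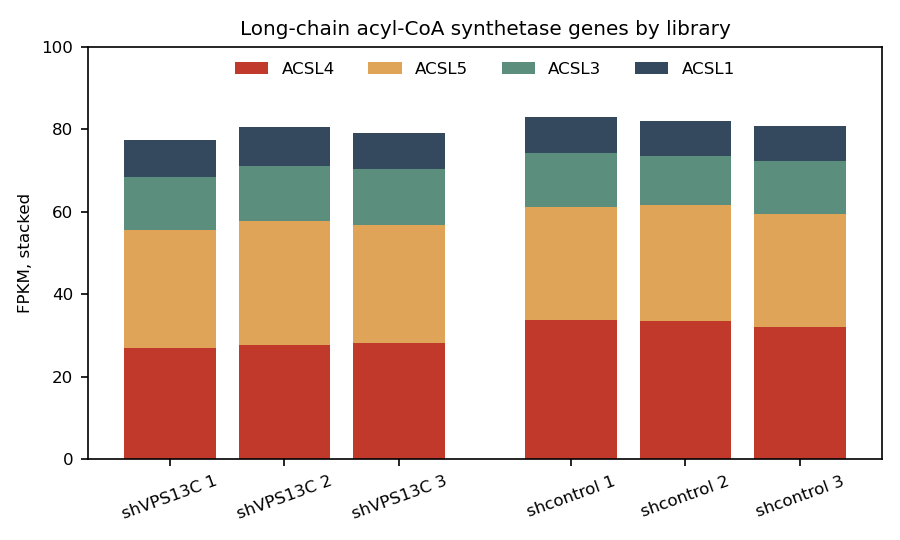
FPKM of ACSL4, ACSL5, ACSL3 and ACSL1, stacked, in each library (horizontal axis, shVPS13C left). The ACSL4 segment is 26.9 to 28.3 FPKM in shVPS13C and 32.0 to 33.7 FPKM in shcontrol.

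LPCAT3 (Entrez 10162, chr12:6976185-7018476), the step after ACSL4, differed the other way. It had 82.7, 84.5 and 85.6 CPM in shVPS13C 1, 2 and 3, against 72.1, 71.6 and 71.0 CPM in shcontrol 1, 2 and 3. The lowest shVPS13C library stood above the highest shcontrol library, and the spread within groups was small (1.73% of the mean in shVPS13C and 0.704% in shcontrol). The means were 84.3 ± 1.46 CPM in shVPS13C and 71.6 ± 0.504 CPM in shcontrol (SD, n = 3 each), a fold of 1.18, or 0.24 on the log2 scale (95% confidence interval 0.15 to 0.33, SE 0.044). On the FPKM scale the ratio of ACSL4 to LPCAT3 was 0.635, 0.645 and 0.647 in shVPS13C, against 0.921, 0.914 and 0.887 in shcontrol. Its main transcript, NM_005768, held 94.2 ± 1.37% of the counts in shVPS13C and 94.1 ± 2.8% in shcontrol. In GENCODE 66.4% of the bases of that transcript lie opposite exons of EMG1, a ribosome assembly gene. The estimated counts of LPCAT3 and EMG1 were not whole, as with 1350.41 and 1443.59 in shVPS13C 1. In each library the counts of the pair added to a whole number. Shared reads were thus divided between the pair by estimate, and the level given for LPCAT3 rests on that division. EMG1, named after this overlap was seen, had 90.0 ± 1.28 CPM in shVPS13C and 94.3 ± 5.02 CPM in shcontrol (SD, n = 3 each; log2 -0.07, edgeR adjusted p = 0.451), and its part in the LPCAT3 value was not tested.

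AIFM2 (chr10:70112271-70132825) was at the same level in both groups within a narrow interval. It had 50.2, 48.6 and 48.0 CPM in shVPS13C, against 46.8, 50.2 and 49.4 CPM in shcontrol. The groups overlapped. The log2 fold change was 0.0033 with a 95% confidence interval of -0.10 to 0.11.

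TFRC (Entrez 7037, chr3:196049284-196082090) had a lower level in shVPS13C, but the shcontrol libraries were split. It had 586, 589 and 603 CPM in shVPS13C 1, 2 and 3, against 715, 730 and 611 CPM in shcontrol 1, 2 and 3. The first and second shcontrol libraries stood well above the shVPS13C libraries, while the third lay just above them, and in raw estimated counts shcontrol 3 (9526) was inside the shVPS13C range (9270 to 9630). The spread was 1.503% of the mean in shVPS13C and 9.503% in shcontrol. On the log2 scale the fold change was -0.21 (95% confidence interval -0.31 to -0.11, SE 0.049). Without shcontrol 3 it was -0.29, and without shcontrol 2 it was -0.16. DESeq2 and limma-trend on log2(FPKM + 1) did not call TFRC, and neither did the edgeR fits without shVPS13C 1, shVPS13C 2, shcontrol 1 or shcontrol 2. The transcript NM_001128148 held 94.1 ± 3.37% of its counts in shVPS13C and 92.8 ± 4.03% in shcontrol (SD, n = 3 each).

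The ferritin genes and NCOA4 overlapped between groups. FTH1 (chr11:61964285-61967634), the subunit with ferroxidase activity, had 5801, 5908 and 5763 CPM in shVPS13C, against 5896, 5503 and 6158 CPM in shcontrol. Its log2 fold change was -0.01 (95% confidence interval -0.10 to 0.08). FTL (chr19:48965309-48966879), the light subunit that aids mineral formation, had 3866, 3968 and 3841 CPM in shVPS13C, against 4018, 3801 and 4089 CPM in shcontrol, a log2 fold change of -0.03 (95% confidence interval -0.11 to 0.06). In both genes the shcontrol libraries ranked alike, with replicate 2 lowest and replicate 3 highest, and enclosed the shVPS13C values. NCOA4 (chr10:46005088-46030623) had 183, 179 and 194 CPM in shVPS13C, against 193, 187 and 178 CPM in shcontrol, a log2 fold change of 0.00 (95% confidence interval -0.09 to 0.09). The ratio of FTH1 to FTL on the FPKM scale was 0.957 to 0.960 in shVPS13C and 0.930 to 0.966 in shcontrol. The ratio of FTH1 to TFRC was 50.6, 50.9 and 48.9 in shVPS13C, against 42.1, 38.3 and 51.1 in shcontrol, so shcontrol 3 again lay next to the shVPS13C libraries. Counts of ferritin are uncertain, since 25.0% of the 50-base stretches of FTH1 occur in 15 pseudogenes and 18.3% of those of FTL in 2 pseudogenes. FTH1 also has 71.6% of its transcript opposite exons of BEST1, whose own level was 17.5 ± 0.26 CPM in shVPS13C and 15.8 ± 0.56 CPM in shcontrol (SD, n = 3 each). The estimated counts of FTH1 and BEST1 also added to a whole number in each library, so reads were divided between them by estimate.

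**Figure D3:**
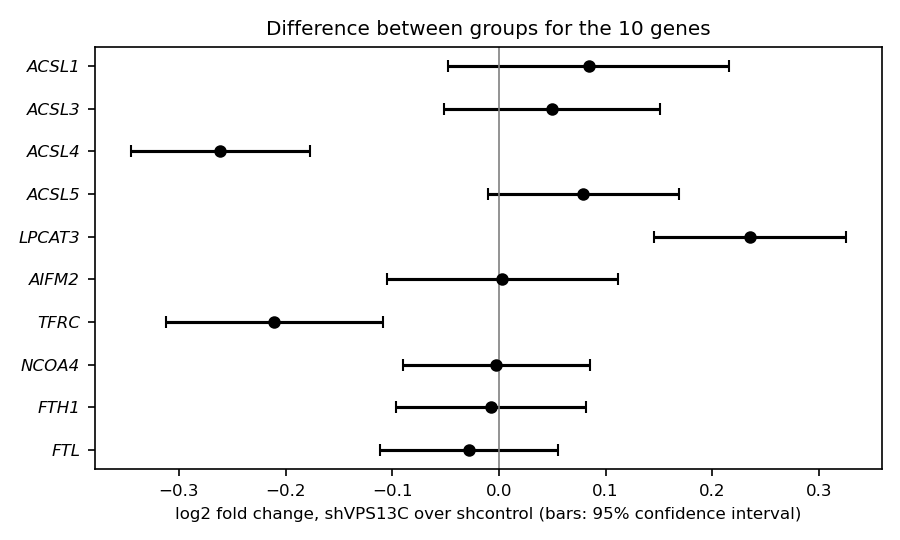
Log2 fold change of each of the 10 genes, shVPS13C over shcontrol (horizontal axis), with its 95% confidence interval from the edgeR fit across all genes. ACSL4 (-0.26) and TFRC (-0.21) lie left of 0 and LPCAT3 (0.24) right of it, and the other intervals include 0. The intervals are unadjusted and do not allow for the choice of these genes on this contrast. Leaving out 0 is therefore a description and not evidence of a difference.

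In the edgeR quasi-likelihood fit over all genes at an adjusted p under 0.05, LPCAT3 was called higher and ACSL4 and TFRC lower in shVPS13C, 3 of the 10. Of all tested genes 4.5% were called, 2.27% higher and 2.23% lower. Libraries of the groups did not overlap in ACSL1, ACSL4, ACSL5, LPCAT3 and TFRC, where this held for 23.1% of all tested genes. Since the set was chosen on this contrast, these calls describe the members and are no test of them, and nothing is read from their share. The median log2 fold change of the set was 0.00, and that of all tested genes was 0.00.

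The promoters of ACSL4, LPCAT3 and TFRC, from 250 bases before to 50 bases after the RefSeq start on GRCh38.p14, are shown. These genes were picked because their unadjusted intervals of the fold change did not include 0, a choice made on the values themselves. Motifs were searched on both strands and are in capitals: the GC box GGGCGG, the CCAAT box CCAAT, the hypoxia response element core ACGTG and the antioxidant response element core TGACNNNGC. Runs of capitals can hold overlapping matches.
ACSL4, chrX:109733208-109733507, minus strand: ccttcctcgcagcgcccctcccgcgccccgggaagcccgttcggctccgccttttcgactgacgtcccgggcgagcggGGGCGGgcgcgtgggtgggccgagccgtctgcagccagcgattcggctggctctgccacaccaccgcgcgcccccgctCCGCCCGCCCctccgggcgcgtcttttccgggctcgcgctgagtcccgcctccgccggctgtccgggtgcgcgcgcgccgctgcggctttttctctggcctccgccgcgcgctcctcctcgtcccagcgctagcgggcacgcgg
LPCAT3, chr12:7018427-7018726, minus strand: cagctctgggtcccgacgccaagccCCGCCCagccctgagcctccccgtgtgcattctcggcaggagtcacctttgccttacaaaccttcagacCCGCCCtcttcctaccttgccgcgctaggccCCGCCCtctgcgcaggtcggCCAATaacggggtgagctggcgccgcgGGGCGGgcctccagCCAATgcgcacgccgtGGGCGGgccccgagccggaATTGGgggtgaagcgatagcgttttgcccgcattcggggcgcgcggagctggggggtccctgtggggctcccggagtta
TFRC, chr3:196082041-196082340, minus strand: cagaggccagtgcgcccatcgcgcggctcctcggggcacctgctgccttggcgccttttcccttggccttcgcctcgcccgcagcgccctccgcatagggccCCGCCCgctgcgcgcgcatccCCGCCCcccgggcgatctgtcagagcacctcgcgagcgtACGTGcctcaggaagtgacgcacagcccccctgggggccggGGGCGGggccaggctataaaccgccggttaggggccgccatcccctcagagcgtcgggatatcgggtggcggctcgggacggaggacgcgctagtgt
The GC box was in all of these promoters and in 45.0% of 35116 promoters of the same length. LPCAT3 also held the CCAAT box, found in 34.6% of all promoters, and TFRC the hypoxia core, found in 21.4%. None of them held the antioxidant core, which 13.3% of all promoters had. All of them were rich in G and C, at 77.7% for ACSL4, 70.0% for LPCAT3 and 73.3% for TFRC, against a median of 58.7% over all promoters. Neither the GC box nor this richness was particular to them. The GC box was in 9 of the 15 promoters searched for the set. In the other genes G and C ran from 47.3% in an NCOA4 promoter to 82.3% in an ACSL1 promoter, with 74.0% for ACSL3. Such matches describe the letters and are not shown to be sites.

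Other genes of the pathway were taken from 7 lists that hold none of the 10, of which 82 of 98 genes were tested. The lists were written from textbook roles but with earlier results of these data known, which the adjusted p-values do not allow for. Across them 1 rose, 4 fell and 77 did not pass (edgeR adjusted p under 0.05), 6.10% called beside 4.5% of all tested genes. The list of cystine and glutathione supply had 3 of 10 tested members down and 7 not past the test. Its median log2 fold change was -0.12. The list also holds CHAC1, a gene of glutathione breakdown, so the count and the median mix opposed roles. SLC7A11, the cystine importer, had 21.7, 20.6 and 21.0 CPM in shVPS13C, against 30.5, 29.2 and 28.9 CPM in shcontrol (log2 -0.49, SE 0.067, adjusted p = 0.0001004). CHAC1, which degrades glutathione, had 13.5, 12.9 and 13.8 CPM in shVPS13C, against 19.0, 16.9 and 22.1 CPM in shcontrol (log2 -0.52, adjusted p = 0.00127). GCLM, the modifier subunit of glutamate-cysteine ligase, had 52.0, 48.9 and 52.2 CPM in shVPS13C, against 61.8, 60.9 and 60.3 CPM in shcontrol (log2 -0.26, adjusted p = 0.00306). In all of these genes the groups lay apart. GCLM lost its call with limma-trend on log2(FPKM + 1) (adjusted p = 0.0551). The other 7 tested genes of the list, named after their values were seen, did not pass. SLC3A2, GCLC, GSS and GSR stood at 0.04, 0.01, -0.01 and 0.10 on the log2 scale. CBS, GLS2 and CTH stood at -0.11, -0.18 and -0.13.

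No gene passed in the lists of phospholipid supply and remodelling (0 of 15 tested), lipid peroxide formation (0 of 5) and lipid peroxide defence (0 of 12). Their medians were 0.00, 0.07 and 0.03 on the log2 scale, close to that of all tested genes, of which 4.5% were called. SCD, the desaturase that makes monounsaturated fatty acids, had 415 ± 12.9 CPM in shVPS13C and 398 ± 11.9 CPM in shcontrol (SD, n = 3 each; log2 0.06, 95% confidence interval -0.02 to 0.14). Among genes of peroxide formation PEBP1, a lipoxygenase partner, had 458.2 ± 11.3 CPM in shVPS13C and 464 ± 4.32 CPM in shcontrol (log2 -0.02). In that list 5 of 12 genes were tested, and ALOX15 and ALOX15B were too low for it. NQO1, a quinone reductase, had 1128 ± 24.5 CPM in shVPS13C and 1107 ± 20.6 CPM in shcontrol (log2 0.03, 95% confidence interval -0.05 to 0.10). GPX4, the peroxidase that reduces phospholipid hydroperoxides, had 282 ± 16.2 CPM in shVPS13C and 271 ± 14.5 CPM in shcontrol (log2 0.05, 95% confidence interval -0.04 to 0.15). STARD7, a carrier of coenzyme Q, had an adjusted p of 0.0502 at a log2 fold change of 0.15. GPX4 and STARD7 were named after their values were seen.

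Among the iron genes outside the set, 1 of 11 tested for uptake, export and haem breakdown fell, and 0 of 14 for iron regulation and chaperones passed. These are 9.09% and 0%, beside 4.5% of all tested genes called. SLC25A37, the mitochondrial iron importer mitoferrin-1, had 83.3, 84.2 and 81.0 CPM in shVPS13C, against 92.8, 93.0 and 101 CPM in shcontrol (log2 -0.21, adjusted p = 0.00989). Its call ended without shVPS13C 1 (adjusted p = 0.0512) or shVPS13C 3 (0.0652) and with limma-trend (0.0800). PCBP2, an iron chaperone, had 477 ± 11.9 CPM in shVPS13C and 482 ± 3.98 CPM in shcontrol (SD, n = 3 each; log2 -0.02, 95% confidence interval -0.09 to 0.06). The iron regulatory protein genes, named after their values were seen, did not pass: ACO1 stood at 0.13 (adjusted p = 0.0781) and IREB2 at 0.02 (0.827) on the log2 scale.

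Of 15 regulators of ferroptosis tested 1 rose, or 6.67% beside 4.5% of all tested genes called. This was EPAS1, the gene of the hypoxia-inducible factor HIF-2alpha. It had 403, 401 and 411 CPM in shVPS13C, against 384, 366 and 351 CPM in shcontrol (log2 0.14, adjusted p = 0.0378). The call ended in 7 of 12 other settings, among them the edgeR fits without any 1 of the shVPS13C libraries and without shcontrol 2 or 3 (adjusted p = 0.0728 to 0.159). PTGS2, often used as a marker of ferroptotic cells and named after its value was seen, did not pass (log2 0.02, 95% confidence interval -0.11 to 0.15).

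**Figure D4:**
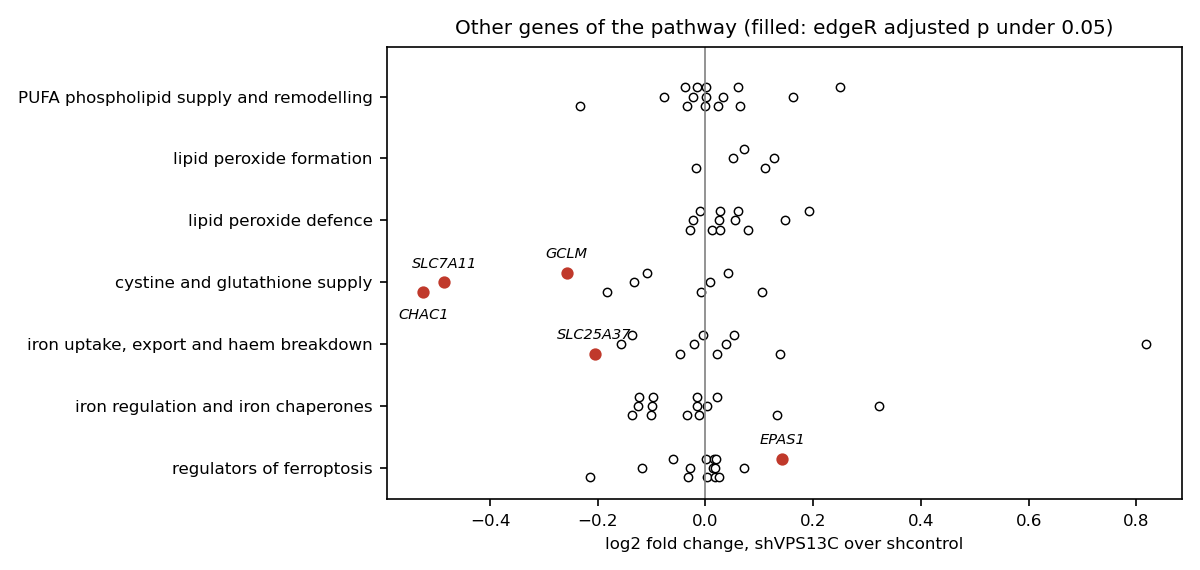
Log2 fold change, shVPS13C over shcontrol (horizontal axis), of the 82 tested genes in the 7 lists (rows), 1 point per gene, filled and named where the edgeR adjusted p was under 0.05. SLC7A11, CHAC1, GCLM and SLC25A37 lie left of 0 and EPAS1 right of it.

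Across the 6 libraries LPCAT3 had the most negative Pearson r with ACSL4 within the set (-0.94) and TFRC the most positive (0.86), which describes the same difference between groups and carries no test. Of the 9790 genes averaging 10 CPM or more, those most like ACSL4 in log2 CPM were BIRC2, an inhibitor of apoptosis (r = 0.998), the polarity gene MPP5 (r = 0.998) and the palmitoyltransferase gene ZDHHC7 (r = 0.993). BIRC2 had 101, 102 and 103 CPM in shVPS13C, against 112, 111 and 110 CPM in shcontrol. In MPP5 the values were 47.5, 48.6 and 49.7 CPM in shVPS13C and 56.6, 56.9 and 54.8 CPM in shcontrol. ZDHHC7 had 204.6, 207.4 and 207.4 CPM in shVPS13C, against 233.4, 232.5 and 229.2 CPM in shcontrol. The r was over 0.95 in 110 genes. With 6 libraries in 2 groups, likeness to ACSL4 largely restates its difference between groups and is no test of these genes.

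**Figure D5:**
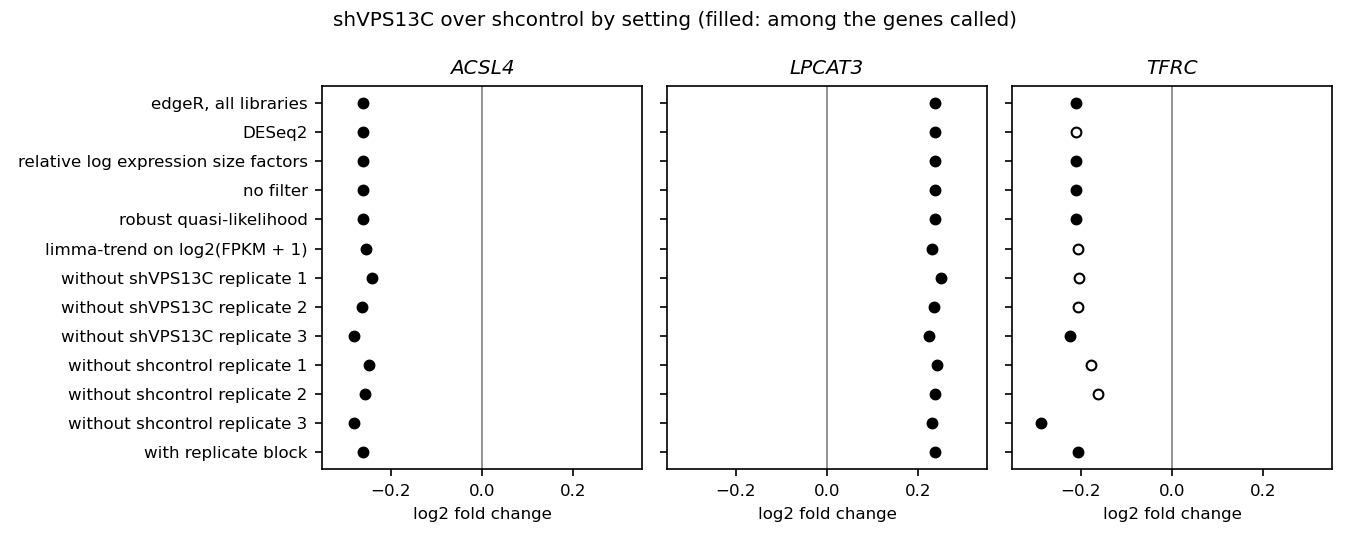
Log2 fold change of ACSL4, LPCAT3 and TFRC, shVPS13C over shcontrol (horizontal axes), in the edgeR fit and in 12 other settings (rows), filled where the gene was among those called. ACSL4 ran from -0.28 to -0.24 and LPCAT3 from 0.22 to 0.25, with filled points in all 12, while TFRC ran from -0.29 to -0.16 with filled points in 6. The fill describes genes chosen on this contrast and is no test of them. All settings share the deposited division of reads between LPCAT3 and EMG1.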

How the data were processed

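Libraries of SiHa total RNA were sequenced on DNBSEQ (50-base single-end reads), per the labels' protocols. Per the submitters' processing notes the build was hg38. Neither aligner nor counting program, nor whether counting was stranded, is given in the sources used here. The reads divided between LPCAT3 and EMG1, which lie on opposite strands, show that strand did not separate this pair. The deposited gene and transcript tables hold estimated counts, FPKM, TPM and a normalized read count (a scaled signal), per the file headers. The authors' TPM values and normalized signal were not used. Estimated counts were rounded, filtered with filterByExpr, which left 12671 genes, scaled by TMM (factors 0.996 to 1.01) and fitted with the edgeR 4.0.16 quasi-likelihood test, two-sided, with 4 residual degrees of freedom and Benjamini-Hochberg adjustment over all tested genes. CPM uses the TMM-scaled library size. Fold changes are shVPS13C over shcontrol, and SE and confidence intervals come from this fit. Alternatives used DESeq2 1.42.0, limma 3.58.1 on log2(FPKM + 1), other scaling, no filter, a robust fit, a replicate block and each library left out. The gene step was tested on simulated data. No pair of libraries of 1 group agreed within counting error (chi-square per degree of freedom 1.95 to 3.46).

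Members and lists were chosen with earlier results of these data known. Named genes were the 10 members, VPS13C, the called genes of each list or else its most abundant tested gene, and the 3 genes most like ACSL4. Gene positions and promoters came from RefSeq (GRCh38.p14), where no FTH1 promoter was given, and transcripts from GENCODE 29.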

Additional observations from a re-analysis of the deposited data

How the results depend on the processing

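Over 12 other settings the log2 fold change ran from -0.28 to -0.24 for ACSL4 and from 0.22 to 0.25 for LPCAT3, a description of genes chosen on this contrast. All settings start from the deposited estimates, so none varies the division of reads between LPCAT3 and EMG1. VPS13C, SLC7A11, CHAC1, GCLM, SLC25A37 and EPAS1 did not change sign in these settings, which were not run for the genes most like ACSL4. All genes called, 570 (288 higher, 282 lower), became 342 (178 and 164) with DESeq2 and 147 (63 and 84) with limma-trend on log2(FPKM + 1). Leaving out 1 library in turn gave 204 to 463 genes (101 to 238 higher, 103 to 225 lower). Of the 10 genes, 2 were called lower, against 1 with DESeq2 and limma-trend, where TFRC was lost, and 1 to 2 with a library left out. Of the list genes 5 were called: 2 with limma-trend and 3 to 6 with a library left out. Those called higher numbered 2 with relative log expression size factors, no filter or the robust fit, 0 with limma-trend or the replicate block, and 0 to 1 with a library left out. Those called lower numbered 2 with limma-trend and 3 to 5 with a library left out. The causes were not tested. The deviations of libraries with the same replicate number correlated at 0.156, -0.101 and -0.267, which shows no consistent pairing by number. Between libraries with different numbers they correlated at -0.192 to 0.306. Deviations from a mean of 3 libraries depend on each other, so these values cannot exclude a shared batch. With the replicate block 483 genes were called, 3 of the 10 and 4 of the list genes, without EPAS1 (adjusted p = 0.0577). At 15643965 to 16333424 counts a library, low genes such as ACSL6 could not be tested.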

Other observations

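SLC40A1, the iron exporter ferroportin, is 1 of the 11 tested genes of iron uptake, export and haem breakdown. Its transcript matched the search for iron-responsive elements in the 5′ untranslated region, and TF of the same list matched in the 3′ untranslated region. The search matched 26 of 19669 coding genes in the 5′ and 105 in the 3′ untranslated region. A match describes the letters, and whether TF carries a working element was not tested. SLC40A1 had a mean of 1.66 ± 0.489 CPM in shVPS13C and 0.939 ± 0.149 CPM in shcontrol (SD, n = 3 each). The log2 fold change of 0.82 did not pass (SE 0.288, edgeR adjusted p = 0.11). HBA1, an alpha-globin gene, had 64.4, 55.8 and 59.2 FPKM in shVPS13C 1, 2 and 3, and 65.8, 51.8 and 61.2 FPKM in shcontrol 1, 2 and 3. The beta-globin gene HBB had 2 counts over all libraries, and ALAS2, the haem synthesis enzyme of red cells, had 1 count. HBA1 and HBA2 are near-identical copies, so the division of counts between them is uncertain.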
